A study of Homo sapiens with 2 samples.

Results

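The immunoglobulin loci encode the antibody chains, with IGH for the heavy chain and IGK and IGL for the kappa and lambda light chains. Crosslink regions of Cas9 in these 3 loci were chosen by position on hg38, on either strand, within chromosome 14 from 105586437 to 106879844 (IGH), chromosome 2 from 88857361 to 90235368 (IGK) and chromosome 22 from 22026076 to 22922913 (IGL). They comprised 20 of the 4204 regions of replicate 1 and 21 of the 5995 regions of replicate 2, or 23 distinct regions of 7725 over both libraries. The loci were picked from earlier results on these same libraries, in which they stood high in regions found in both libraries, so their counts, their density and their recurrence are given as a description with no test.

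The libraries are 2 replicates of 1 group, from H1-iCas9 cells, a derivative of the human embryonic stem cell line H1 that makes FLAG-tagged Cas9 under doxycycline. Cells were given doxycycline at 1 µg/ml for 24 hours and crosslinked with ultraviolet light at 254 nm and 300 mJ/cm2, and Cas9 was pulled down with an anti-FLAG antibody. In irCLIP the crosslinked base tends to stop reverse transcription, so a region marks a position of contact between protein and nucleic acid. No guide RNA is named in the labels, no control library or RNA abundance was analysed here, and the labels do not say whether the replicates are separate cultures.

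Each locus is an array of short gene segments. A developing B lymphocyte joins 1 variable (V) segment to a joining (J) segment, with a diversity (D) segment between them in the heavy chain, and splices the product to a constant (C) region. Cells outside the lymphoid lineage keep the segments apart, in the germline order. IGH is read from the minus strand of the chromosome, IGL from the plus strand, and the J and C segments of IGK from the minus strand, with V segments of IGK in both orientations. The annotation used here gives the span of each segment but no strand and no exons, so positions are counted from the edge of a segment with the lower coordinate.

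Recurrent regions lay almost wholly inside segments. All 41 entries of the libraries in the loci were single bases. Of the 20 regions of replicate 1, 17 lay within the span of a V, J or C segment, and so did 17 of the 21 regions of replicate 2, and these were the same 17 positions. The 343 segments of the loci together cover 157.9 kb, which is 4.42% of the 3568.3 kb that the loci span. Within segments this came to 107.7 regions per Mb in each library. The 17 positions lay in 9 segments, 8 of which held 2 on opposite strands. This density thus counts most places as 2 regions. Outside segments it came to 0.880 regions per Mb in replicate 1 and 1.17 in replicate 2. The spans of all annotated genes, segments included but the 3 whole-locus entries left out, held 1.54 and 2.26 per Mb. Those spans take in introns and hold a smaller share of paired regions, so they are not a like comparison for short segments. The regions of the loci were thus concentrated in the segments. No density for sequence outside genes is given here, so the sequence between segments has no like comparison. The counts outside segments are 3 and 4 regions, so these low densities are imprecise.

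**Figure D1:**
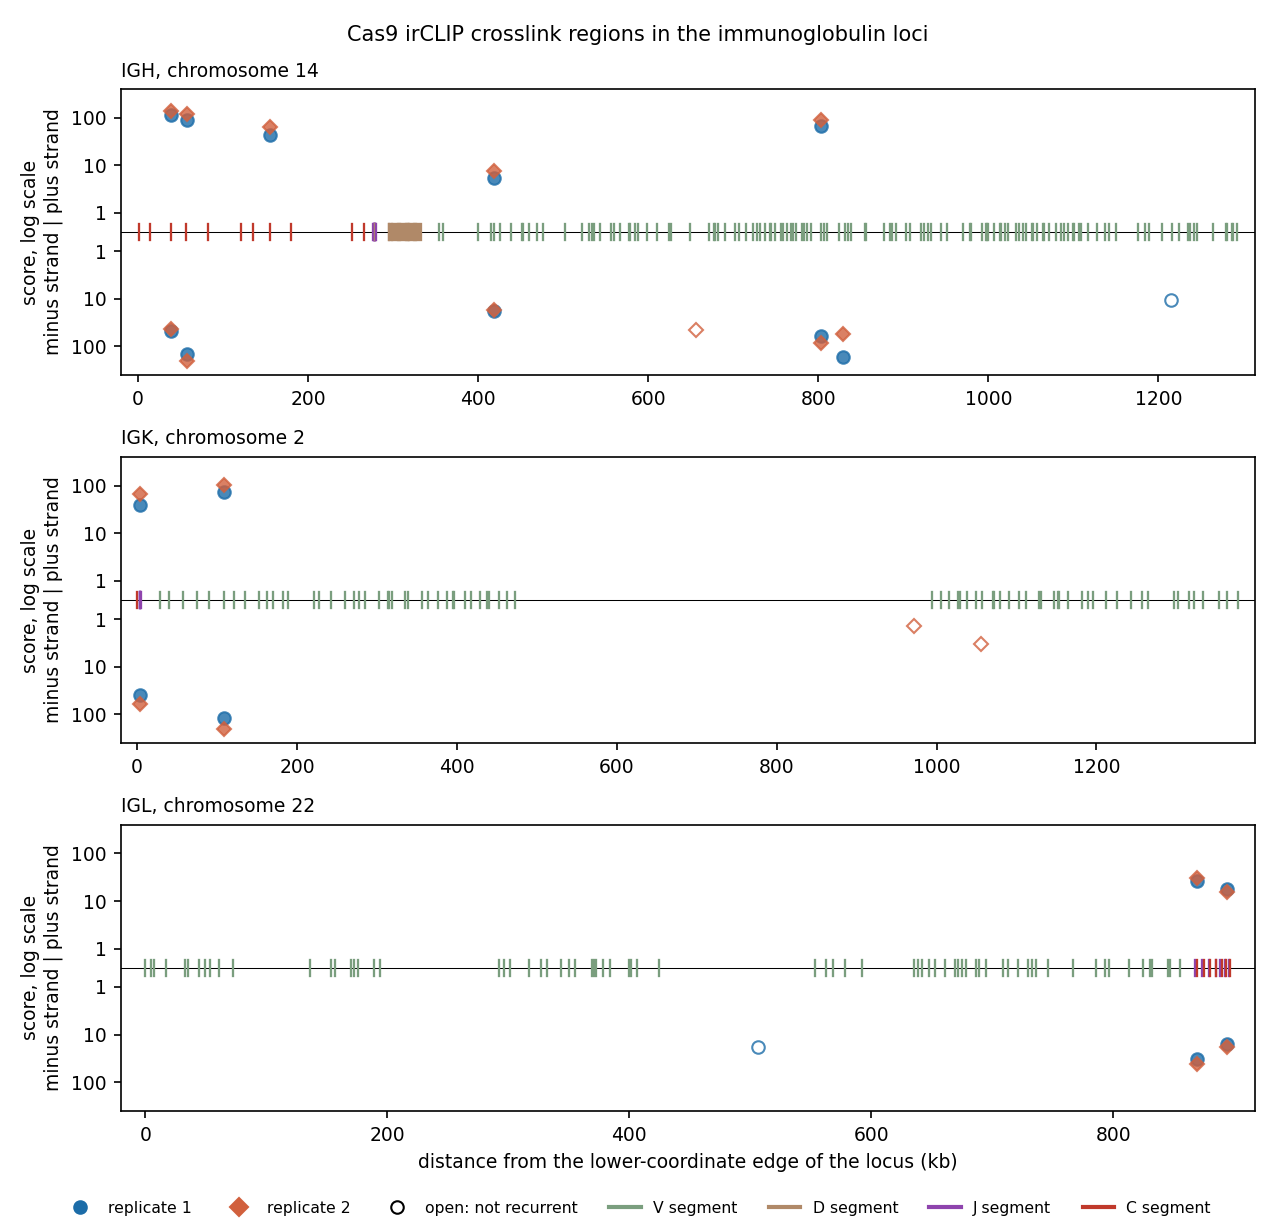
Map of the 3 loci. The horizontal axis is the distance from the lower-coordinate edge of the locus in kb, the vertical axis is the deposited score on a log scale with plus-strand regions above and minus-strand regions below the line, and coloured ticks are segments. Filled symbols are regions found in both libraries, open symbols are the 5 found in 1 library, and the filled symbols of 8 segments stand both above and below the line, those of IGHG1 and LOC124903400 on 1 side.

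Regions were recurrent, meaning that the other library had a region on that strand sharing 1 base or more, in 18 cases. This was 90.0% of the replicate 1 members (18 of 20, exact 95% binomial interval 68.3 to 98.8) and 85.7% of the replicate 2 members (18 of 21, 63.7 to 97.0). Over all regions the shares were 58.8% and 41.3%, and since recurrence led to the choice of these loci nothing is read from the difference. All 18 had identical start, end and strand in both libraries. IGH held 10 of them, IGK 4 and IGL 4. The intervals cover the counting of regions only, since read depth behind a region is unknown.

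Regions of the loci came mostly as opposite-strand pairs, defined as a plus-strand and a minus-strand region of 1 library that are each other's nearest opposite-strand neighbour at most 500 bases apart. Pairs held 16 of the 20 members in replicate 1 (80.0%) and 16 of the 21 in replicate 2 (76.2%), where over all regions 5.95% and 14.7% were paired. Such pairs had been seen in an earlier analysis of these libraries, so these shares are a description. Both libraries had the same 8 pairs at the same bases. Each pair lay within a single segment, and no segment held more than 1. In all 8 the plus-strand region had the lower coordinate, so that the members face each other, as in 98% of the 101 recurrent pairs of the whole series (99 of 101). The pairs lay in IGHG4, IGHG2, IGHV1-3 and IGHV3-35 of the heavy chain locus, in IGKJ4 and IGKV1-6 of the kappa locus, and in IGLC1 and IGLC6 of the lambda locus.

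**Figure D2:**
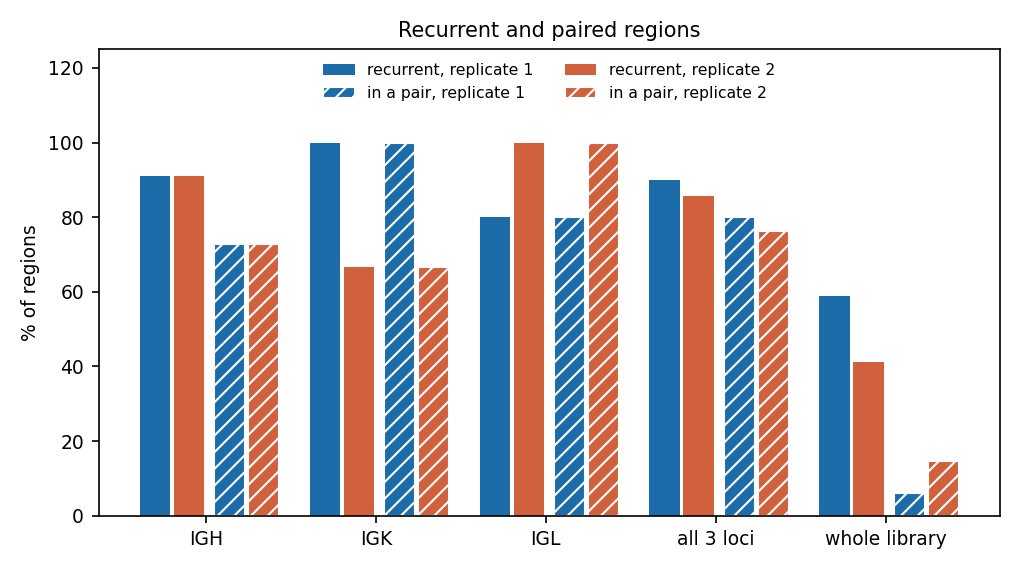
Share of regions that recur in the other library (plain bars) and that lie in an opposite-strand pair (hatched bars), in percent, for each locus, for the 3 loci together and for the whole library. In the loci 80.0% and 76.2% of regions are paired, and in the whole libraries 5.95% and 14.7%.

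Among constant segments, IGHG4 and IGHG2, which encode the constant parts of the IgG4 and IgG2 heavy chains, carried the widest pairs. In IGHG4 (chromosome 14, 105624476 to 105626065) the plus-strand region at 105625082 scored 114 in replicate 1 and 140.0 in replicate 2. Its minus-strand partner at 105625191 lay 109 bases further on and scored 47.0 and 42.8. The plus-strand member was thus the higher in both libraries, by 2.43-fold and 3.27-fold, and the 2 members did not overlap in score.

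In IGHG2 (chromosome 14, 105643203 to 105644789) the order was the other way round. The plus-strand region at 105643362 scored 88.2 and 117 in replicates 1 and 2, and the minus-strand region at 105643456, at a distance of 94 bases, scored 142 and 198. The pair sat at bases 160 and 254 of the segment, whereas that of IGHG4 sat at bases 607 and 716, so the 2 related segments, which have nearly the same length of 1587 and 1590 bases, held their pairs at different places.

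IGHG1, the IgG1 constant segment (chromosome 14, 105741473 to 105743070), was the 1 segment with a region and no pair. Its plus-strand region at 105741895, base 423 of the segment, scored 44.2 in replicate 1 and 62.3 in replicate 2, and neither library had a minus-strand region there. The IgG3 segment IGHG3 and the pseudogene IGHGP held 0 regions. The IgG segments are near-identical copies, and the sources used here do not say how reads that align to several copies were placed, so the assignment to 1 copy is uncertain for all of them.

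The lambda constant segments gave the other constant-region pairs. In IGLC1 (chromosome 22, 22895375 to 22895694), which encodes a lambda constant domain, the plus-strand region at 22895525 scored 27.0 and 31.3 in replicates 1 and 2. The minus-strand region at 22895614, at a distance of 89 bases, scored 32.5 and 40.6. IGLC1 lies inside the span of IGLL5, a lambda-like gene, so these positions belong to both annotations. In IGLC6 (chromosome 22, 22919535 to 22919858), annotated as a constant-region pseudogene, the region at 22919563 scored 17.9 and 15.9 and its partner at 22919654, at a distance of 91 bases, scored 15.4 and 17.8. The order of the 2 IGLC6 strands changed between libraries, and these were among the lowest scores of the recurrent members.

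The pairs of IGLC1 and IGLC6 had nearly the same width, and each enclosed a similar share of its segment, 28.1% and 28.4%, but at different places, from base 151 to 240 and from base 29 to 120. IGLC2 and IGLC3, the neighbouring lambda constant segments, held 0 regions.

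Among joining segments, IGKJ4 alone held a region. It is 38 bases long (chromosome 2, 88860886 to 88860923), and its pair took up nearly all of it, from base 2 on the plus strand to base 35 on the minus strand, 89.5% of the segment. The plus-strand region at 88860887 scored 38.2 in replicate 1 and 66.5 in replicate 2, and the minus-strand region at 88860920 scored 39.7 and 60.1. The strands were within 1.11-fold of each other in both libraries. The other J segments, 20 of 21 over the loci, held none, among them IGKJ3 and IGKJ5, whose edges lay 301 and 282 bases from the nearer member of the pair.

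Variable segments are by far the most numerous, 276 of 343, and 3 of them held regions. IGKV1-6 (chromosome 2, 88966262 to 88966738) had the highest score of the 3 loci in replicate 2. Its plus-strand region at 88966508 scored 72.5 and 101 in replicates 1 and 2, and its minus-strand region at 88966547, at a distance of 39 bases, scored 122 and 207. The minus-strand member was higher in both libraries.

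IGHV3-35 (chromosome 14, 106389390 to 106389843) had a pair near its lower edge, at bases 9 and 81. The plus-strand region at 106389398 scored 67.8 and 87.2 and the minus-strand region at 106389470 scored 60.2 and 85.9, so the strands differed by at most 1.13-fold. IGHV1-3 (chromosome 14, 106005095 to 106005532) held the lowest-scoring recurrent member. Its plus-strand region at 106005246 scored 5.48 in replicate 1 and 7.74 in replicate 2, in the lowest 11.2% and 13.5% of those libraries. Its minus-strand partner at 106005316, at a distance of 70 bases, scored 17.9 and 17.0.

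**Figure D3:**
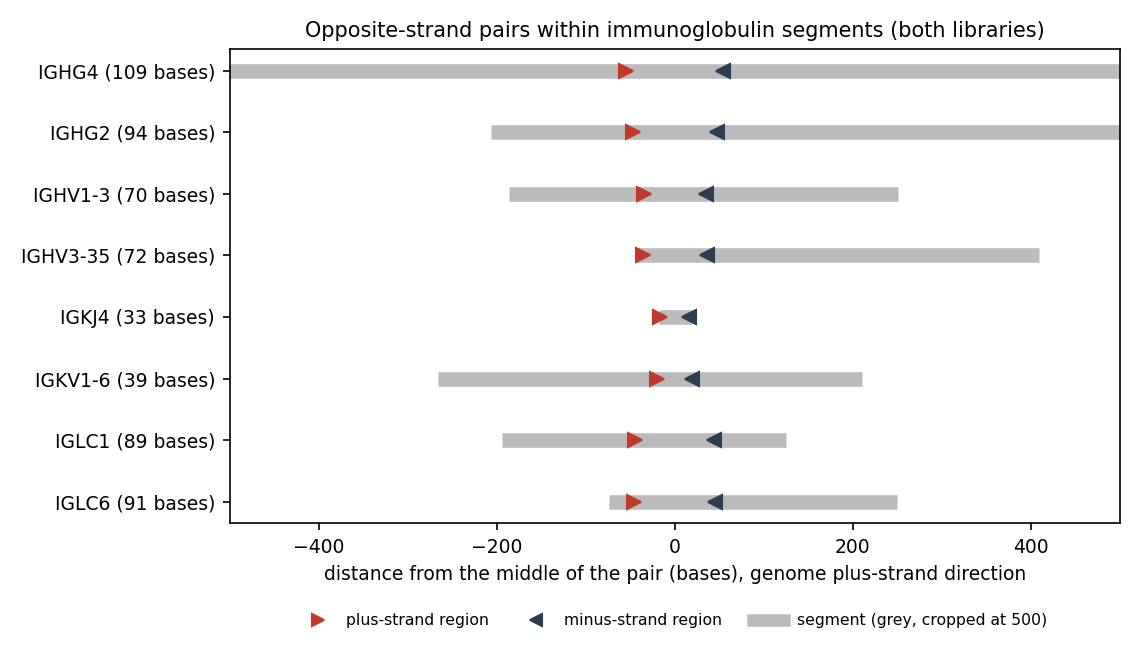
Position of the 8 pairs within their segments. The horizontal axis is the distance in bases from the middle of the pair, grey bars are the annotated segments (IGHG4 and IGHG2 extend beyond the axis), right-pointing triangles are plus-strand and left-pointing triangles minus-strand regions. In every pair the triangles face each other, and in IGKJ4 the pair spans nearly the whole segment.

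By class, constant segments held 9 recurrent regions in 5 of 19 segments, joining segments 2 in 1 of 21, and variable segments 6 in 3 of 276. The 27 diversity segments, which are very short and cover 0.609 kb, held 0. The constant segments cover 31.4 kb and the variable segments 124.9 kb, so the constant class held more regions on the shorter length. All 6 regions in variable segments, which form 3 pairs, fell in the 129 not annotated as pseudogenes. The 147 variable pseudogenes, with a similar length of 61.1 against 63.8 kb, held 0, so the split rests on 3 segments. This split was not kept in the constant class, where the pseudogene IGLC6 held 2. The classes with a region differed among the loci, with constant and variable segments in IGH, joining and variable segments in IGK, and constant segments alone in IGL, where 0 of 73 variable segments held a region. These counts are small, and no test was run on them.

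The distance within pairs set the heavy and lambda chain pairs beside those of the rest of the genome. Pairs in these libraries had been seen in an earlier analysis, so the distances are given as a description. The 8 immunoglobulin pairs were 33 to 109 bases wide, with a median of 80.5, and the 93 recurrent pairs elsewhere had a median of 26 with quartiles of 23 and 30. Between 50 and 200 bases, a range set after the values were seen, lay 6 of the 8 immunoglobulin pairs and 0 of the 93 others, so that the 5.94% of recurrent pairs in this range (6 of 101) were all in IGH or IGL. The 93 others included 3 pairs of more than 200 bases, up to 494, which were wider than every immunoglobulin pair. The kappa pairs of IGKJ4 and IGKV1-6, at 33 and 39 bases, lay inside the range of other pairs. No test was run, since pairs within a library are not replicates.

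The pairs of the individual libraries include the recurrent pairs just described, so these counts are not independent of those above. Wider than 200 bases were 4 pairs outside the loci in replicate 1 and 7 in replicate 2. Of 117 pairs outside the loci in replicate 1, 0 were 50 to 200 bases wide. Of 432 in replicate 2, 3 were, in HSPA2, a heat shock protein gene (64 bases), in HSPA9, a mitochondrial chaperone gene (51 bases), and in TCF3, a transcription factor gene (120 bases, with the minus-strand region first). None of the 3 was a pair in replicate 1, and they are named here after their values were seen. Below 200 bases, the widest recurrent pair outside the loci was also in an immunoglobulin segment, IGHV3OR16-8, at 49 bases, followed by CSH2, a placental hormone gene, at 43.

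**Figure D4:**
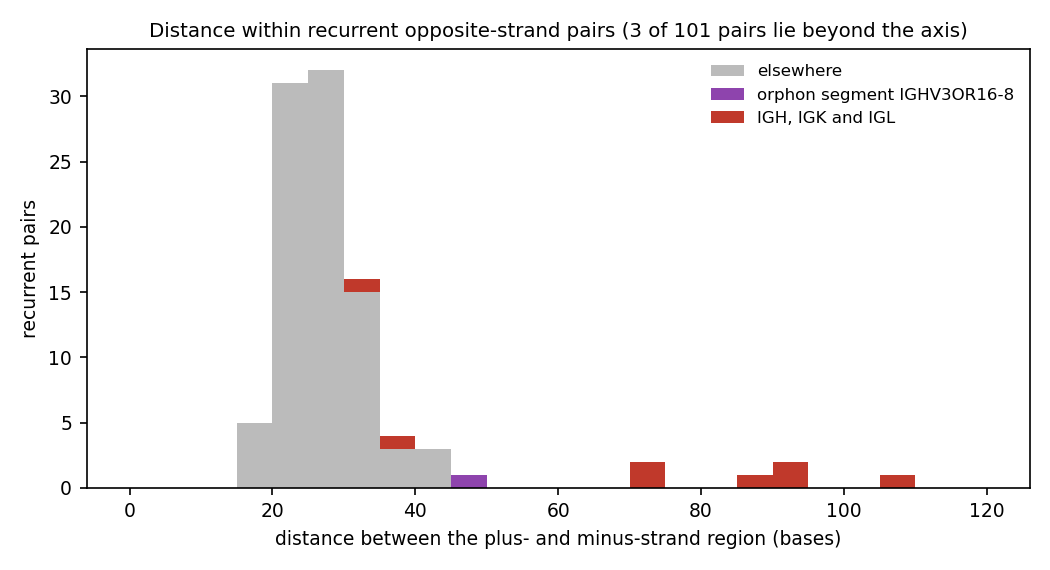
Histogram of the distance in bases between the members of the recurrent opposite-strand pairs, in bins of 5 bases, stacked by place. Pairs elsewhere (grey) centre on a median of 26 bases, and the 6 pairs from 70 to 109 bases are all in IGH or IGL (red). Of the 101 pairs, 3 lie beyond the axis, all of them outside the loci and wider than 200 bases.

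The strands of a pair had related scores. Across the 8 pairs the plus-strand and minus-strand scores correlated at a Spearman rho of 0.83 in replicate 1 and 0.74 in replicate 2, against 0.34 and 0.23 across the 93 recurrent pairs elsewhere. The median difference between the strands, without regard to sign, was 0.48 and 0.57 on the log2 scale in the loci and 0.73 and 0.66 elsewhere. These are descriptions across pairs that share a library. Elsewhere 12 and 11 pairs had a member that scored 708.396 or more, the highest score of any single site in the libraries, and in the loci 0 did. The minus-strand member was higher in 5 of 8 pairs in each library, so neither strand led throughout.

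Regions outside segments were few and, with 1 exception, not recurrent. The exception, at 106414929 on the minus strand of chromosome 14, lay in the long noncoding RNA gene LOC124903400, which is annotated on the plus strand, 3986 bases from IGHV3-38 and 3089 bases from IGHVIII-38-1. It had no partner on the other strand. It scored 168 in replicate 1, the highest of the 3 loci in that library, and 54.2 in replicate 2. Its ratio of replicate 2 to replicate 1, 0.323, was the lowest of the 18 recurrent members, of which the next lowest was 0.887.

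In replicate 1 alone, a minus-strand region at 106801668 in IGH scored 10.7 and lay 1024 bases from IGHV3-73 and 10515 bases from IGHV3-72. Another at 22532312 in IGL, also on the minus strand, scored 17.8 and lay 81660 bases from IGLV7-35 and 47530 bases from IGLV2-34, in a stretch of the locus without segments. Both were below the median score of that library, 21.4.

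In replicate 2 alone, a minus-strand region at 106242700 in IGH scored 45.2 and lay between IGHV3-21 (7185 bases) and IGHV3-22 (15062 bases). The kappa locus had a minus-strand region at 89828703 that scored 1.41, between IGKV2-40 (498274 bases) and IGKV2D-40 (23055 bases), and another at 89912639 that scored 3.26, between IGKV3D-34 (5348 bases) and IGKV1D-33 (1432 bases). These kappa regions were the 2 lowest-scoring members. All 5 regions found in 1 library were unpaired, outside segments and on the minus strand.

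Scores of the members lay above the middle of each library without reaching the top. The median was 41.9 in replicate 1 (lowest 5.48, highest 168) and 54.2 in replicate 2 (lowest 1.41, highest 207), where the medians over all regions were 21.4 and 21.3. At or above the library's median were 14 of 20 members and 15 of 21, against 50.1% and 50% of all regions. By locus the medians were 60.2 and 62.3 in IGH, 56.1 and 63.3 in IGK, and 17.9 and 24.5 in IGL. The lambda locus was thus the lowest in both libraries, with its highest score, 32.5 and 40.6, below the medians of the other loci. In replicate 1 its median was also below that of all regions. Because score and recurrence move together in these libraries, the higher scores are not independent of how the loci were chosen. Recurrent regions elsewhere had median scores of 35.2 and 47.3, and the 18 recurrent members 45.6 and 61.2. Set against recurrent regions, the members were thus higher by less than against all regions.

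Scores of the recurrent members were close between libraries. They were higher in replicate 2 at 14 of 18 members, with a median difference of 0.39 on the log2 scale (SD 0.54 across members), and elsewhere the median difference was 0.26 (SD 1.52) over 2456 recurrent regions, 57.8% of which were higher in replicate 2. All 4 kappa members were higher in replicate 2, by 1.40-fold to 1.74-fold. The 17 members in segments had ratios between 0.887 and 1.74. The Spearman rho between libraries was 0.85 across the 18 members and 0.68 across the others, given as a description, because regions of a library share depth and processing.

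**Figure D5:**
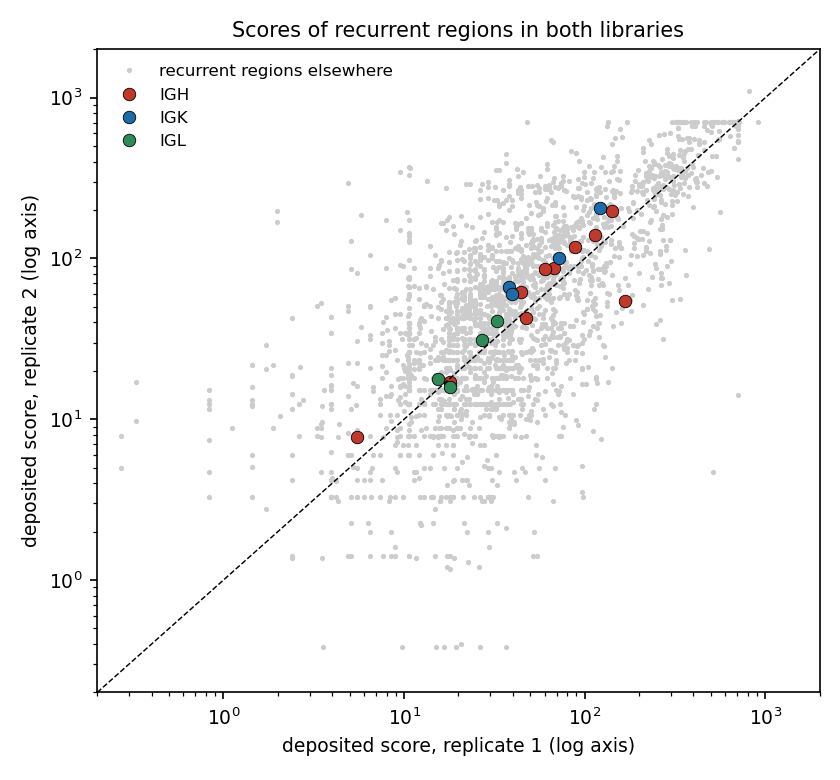
Deposited score of each recurrent region in replicate 1 (horizontal, log axis) and replicate 2 (vertical, log axis), with the members of IGH, IGK and IGL coloured, all others grey and a dashed line of equality. The members lie close to the line, except the region in LOC124903400 at 168 and 54.2.

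The share of a library that lay in the loci was 0.476% in replicate 1 (exact 95% binomial interval 0.291 to 0.734) and 0.350% in replicate 2 (0.217 to 0.535). These intervals overlap, and they count the members of a pair as independent. No test of the difference is reported, since the loci were chosen from these counts and there is 1 library on each side.

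The T cell receptor loci have the same layout of V, D, J and C segments and were the nearest comparison. TRA, which encloses TRD, held 3 regions in replicate 1 and 3 in replicate 2, of which 0 were recurrent, and TRB and TRG held 0, over 1572.5 kb in all. TRAV18 was the 1 segment there with a region, on the minus strand at 22003665 in replicate 2, with a score of 20.8. A pair in TRA at 22476837 and 22476862 was found in replicate 2 alone, with scores of 164 and 249.7, and lay 25 bases apart in the noncoding gene TRD-AS1 and in no segment.

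Orphons, immunoglobulin segments copied to places outside the loci, gave 1 further recurrent pair. Of 43 in the annotation, 2 held a region. In IGHV3OR16-8 on chromosome 16, a plus-strand region at 33009426 scored 21.4 and 31.7 in replicates 1 and 2, and a minus-strand region at 33009475 scored 18.6 and 29.0. This pair too faced inward and lay within the segment, as in the loci. IGKV1OR22-1 held a region with a score of 1.44 in replicate 1 alone.

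Single genes elsewhere are given beside the loci as a description, since the loci were chosen for recurrence and are arrays of many segments. The 5 genes outside the loci with the most recurrent regions, taken in alphabetical order among ties, held 5 (MACROD2) or 4 (ARHGAP15, CNTNAP2, CPVL and PTPRD). IGK and IGL, with 4 each, were level with the latter and below MACROD2, and IGH held 10. None of the recurrent regions of these 5 genes lay in a recurrent pair. Of all 59789 gene spans other than the loci themselves, 0.12% held a recurrent pair (72 spans). Outside the loci 63 gene spans held exactly 1, and none held more, where IGH held 4 and IGK and IGL held 2 each.

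Genes that act on these loci were described by the same count. In all, 3.87% of gene spans held a region in replicate 1, 5.29% in replicate 2 and 2.71% in both, whatever their length. Those spans include very short segments, whereas the median length was 16.5 kb in the B lineage list and 42.7 kb in the recombination list. No share for spans of like length is given, so the list counts have no like background. Of 20 genes of the B lineage, 4 held a region in replicate 1, 2 in replicate 2 and 2 in both. The latter were IGLL5, through the IGLC1 pair, and EBF1, a transcription factor of early B cells and a gene of 404.0 kb. EBF1 held a recurrent pair at 158861230 and 158861260 on chromosome 5, at a distance of 30 bases, with plus-strand scores of 44.8 and 82.9 and minus-strand scores of 32.1 and 43.8. PRDM1, a plasma cell transcription factor, and CD38, a surface enzyme, each held 1 region in replicate 1. VPREB1, a surrogate light chain gene inside IGL, held 0.

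Of 17 genes for recombination and class switching, 4 held a region in replicate 1, and 3 held one in both libraries. XRCC6, which encodes the DNA end-binding protein Ku70, held a recurrent pair 36 bases apart on chromosome 22, at 41649201 on the plus strand (150.1 and 179) and 41649237 on the minus strand (51.6 and 91.7). PRKDC, the kinase subunit recruited by Ku, held a recurrent plus-strand region that scored 13.9 and 78.3. XRCC4, a partner of DNA ligase IV, held a recurrent minus-strand region that scored 32.7 and 3.91. DCLRE1C, the hairpin-opening nuclease, held 1 region in replicate 1. RAG1 and RAG2, which cut the segments, and DNTT, which adds bases at the joints, held 0.

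None of the 13 Fc receptor and IgG-binding genes held a region in either library. Of 12 stem cell genes, LIN28B held 1 in replicate 1 and L1TD1 held 1 in replicate 2, and the other 10 held 0. Because a region marks a position and not an RNA level, these lists say nothing of whether the genes are expressed.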

How the data were processed

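The authors called crosslink regions in each library separately and deposited 1 list per library, with a score per region. The sources used here give neither the caller, nor the scale of the score, nor the rule for multiply aligned reads. The deposited score equals the sum of its site scores to within 0.01. STAR 2.5.2, Bowtie2 2.3.5, deepTools, UMI-tools and SAMtools were used with hg38, per the submitters' processing notes, which assign them no steps here.

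Starts were made 1-based and regions were assigned by overlap to RefSeq spans on GRCh38.p14, the assembly of hg38. No genome sequence was used here, so none is shown. Counts, medians and exact binomial intervals came from Python 3.11.15, pandas 2.3.3 and SciPy 1.17.1. The design also set out a Fisher's exact test of the loci's share between libraries and a sign-flip test of scores, and neither is reported, since the loci were chosen from these counts and regions are not replicates. Alternatives covered bounds, score threshold, recurrence, pair distance, segment assignment and each library alone. Named genes are those with a region in the loci, the nearest segments of other regions, and hits among the lists, T cell receptor loci and orphons. Members and lists were chosen with earlier results of these data known. Some genes of the recombination list are not reported here.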

Additional observations from a re-analysis of the deposited data

How the results depend on the processing

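Of 77 alternative values over 25 results, 61 counted as unchanged. The limit was 1.5 times for counts, and the spread between replicates for recurrence and median scores. For the score difference it was the SD across members, or the direction alone for ranks. The share of a library in the loci was judged by direction and by a Fisher's exact test that is not reported. Direction could change only for this share and the score difference, and it did not. Bounds 100 kb wider added 0 regions, so every value under them was the same as before. Leaving out members at the highest site score, 708.396, could change nothing, because 0 members reached it. Both kinds are among the 61, which is thus a weak measure of stability. Counting each pair once, an alternative added after seeing the data, gave 12 regions in replicate 1 and 13 in replicate 2 over the 3 loci, with 7 and 7 in IGH, 2 and 4 in IGK and 3 and 2 in IGL. Regions at or above the library's median score left 2 and 2 in IGL, and 100% and 93.3% of members recurrent. At most 50 bases apart, also added after seeing the data, left 2 and 2 pairs. Pseudogene segments alone held 2 and 2 regions, and segments not annotated as pseudogenes held 15 and 15. Leaving out replicate 1 or replicate 2 gave 21 and 20 regions, 8 and 8 pairs, 17 and 17 regions in segments, and a median score of 54.2 and 41.9 against 45.2 for both. No paired analysis was possible because there is 1 group. Read depth is unknown, and with 20 and 21 members the shares are imprecise.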
